A study of Mus musculus with 10 samples.

Results

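The genes described here encode 50 proteins of the cytoplasmic ribosome, 21 of the small (40S) subunit and 29 of the large (60S) subunit, out of 21887 protein-coding genes in the gene table. They were chosen by name as housekeeping genes, to set beside inflammatory targets of NF-κB, and a further 33 ribosomal protein genes were kept as a separate list. All 50 were found in the table. The data are lists of p65 peaks from RAW264.7, an established mouse line of macrophage type that derives from a tumour raised with Abelson leukaemia virus, obtained by CUT&Tag, in which an antibody directs a transposase to a bound protein and the released DNA is sequenced. Wild-type cells received for 12 h either DMSO, which is the solvent, or DMSO plus lipopolysaccharide (LPS, a bacterial outer membrane component to which macrophages respond), or LPS plus skatole (LPS+Skatole), skatole being an indole that gut bacteria make from tryptophan. Each group has 3 libraries of 200000 cells each. The series also has 1 Blank sample, which by the methods of the study received no primary antibody, and it was not analysed here. The labels name a p65 antibody and the methods of the study one against phosphorylated p65. A p65 peak or signal below means a peak in the libraries made with that antibody. Which part of it depends on the antibody was not tested. No label says that the 3 libraries of a group came from separate cultures, so the spread and the p-values measure only the differences between these libraries.

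Ribosomal proteins assemble with ribosomal RNA into the subunits that translate mRNA, and their genes are among the most strongly and evenly transcribed in growing cells. Mammalian ribosomal protein promoters lie in open, CpG-rich chromatin, often without a TATA box, and commonly carry sites for ETS-family factors, YY1 and Sp1 and a pyrimidine tract at the transcription start. p65 (RelA) is a subunit of NF-κB. In resting macrophages most of it is held in the cytoplasm by IκB proteins, and LPS releases it to bind κB sites at inflammatory genes such as Nos2 and Acod1.

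Promoter sequences were available from RefSeq (GRCm38.p6) for 41 of the 50 genes, as 49 promoters running from 250 bases before to 50 after each start. The letters CCGGAAG, the core that ETS-family factors recognise, searched on both strands, were in 40.8% of the members' promoters and in 11.6% of all 21263 promoters of the same length. The following stretches run from 80 bases before to 20 after the start, in the direction of the gene, with the ETS core in capitals. Rps25 and Rps18 are shown because their peaks stood among the highest of the members, and Rpl38 and Rps10 because they carry the same letters and had a promoter peak in 5 and 0 of the 9 libraries.
Rps25, chr9:44407634-44407733, plus strand: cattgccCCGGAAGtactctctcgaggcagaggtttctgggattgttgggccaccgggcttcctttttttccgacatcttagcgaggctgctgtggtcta
Rps18, chr17:33955646-33955745, minus strand: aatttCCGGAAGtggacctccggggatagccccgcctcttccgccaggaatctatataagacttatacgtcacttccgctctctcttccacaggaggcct
Rpl38, chr11:114668500-114668599, plus strand: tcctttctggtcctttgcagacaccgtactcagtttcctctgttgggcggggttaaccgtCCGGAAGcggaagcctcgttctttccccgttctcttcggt
Rps10, chr17:27635225-27635324, minus strand: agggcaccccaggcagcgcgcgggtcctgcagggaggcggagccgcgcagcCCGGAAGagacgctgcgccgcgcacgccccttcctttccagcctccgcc

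The κB consensus was found in 7 of the 49 member promoters (14.3%), from 6 genes (Rpl6, Rpl11, Rpl22, Rpl23, Rps19 and Rps23). Of all promoters 12.0% held it, and of the promoters of 50 inflammatory NF-κB targets 47.5% did (19 of 40 promoters). The stretches below show κB letters of 3 members in capitals. They are given because Rps23 and Rpl11 had a promoter peak in all 9 libraries, while the Rpl22 start that carries the letters had one in 1 library and the other Rpl22 start, which does not carry them, had one in 9.
Rps23, chr13:90923042-90923141, plus strand: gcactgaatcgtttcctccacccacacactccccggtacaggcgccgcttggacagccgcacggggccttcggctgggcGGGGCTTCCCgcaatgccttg
Rpl11, chr4:136053374-136053473, minus strand: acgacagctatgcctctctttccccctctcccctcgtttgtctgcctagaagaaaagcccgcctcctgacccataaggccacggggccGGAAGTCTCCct
Rpl22, chr4:152324356-152324455, plus strand: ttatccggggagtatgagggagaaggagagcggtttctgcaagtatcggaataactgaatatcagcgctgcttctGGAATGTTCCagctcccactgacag
In Rpl11 the κB letters overlap an ETS core. The remaining searches gave, for members against all promoters, 55.1% against 46.2% for GGGCGG (Sp1), 8.16% against 6.24% for AAGATGG (YY1), both on either strand, and 22.4% against 7.10% for CTTTC or CTTCC within 10 bases of the start on the strand of the gene. The median number of CpG dinucleotides was 21 in the members' promoters and 13 in all promoters. Of the 6110 promoters with a peak in all 9 libraries, 70.4% held the Sp1 letters, 22.8% the ETS core and 13.6% the κB consensus, with a median of 23 CpG. The ETS core was in 36.2% of the promoters of ribosome biogenesis genes, 25.7% of those of translation factors and 25% of those of the other ribosomal protein genes, which held the YY1 letters in 33.3%. A match of letters is a description of the sequence and does not show that a factor binds there.

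A gene was counted as having a peak when a peak overlapped the 3 kb on either side of its start or its end, and the peak with the largest −log10 p was taken as its best peak. Peaks numbered 37551 to 43450 in the DMSO lists, 55637 to 63498 in the LPS lists and 78136 to 80153 in the LPS+Skatole lists. The genome background, which is the commonest background at a summit and serves here as a stand-in for sequencing depth, was 1.09 to 1.40 fragments in the DMSO lists, 2.23 to 2.34 in the LPS lists and 2.26 to 2.39 in the LPS+Skatole lists. The lists therefore reached down to 6.44 to 7.34 times the background in DMSO and to 4.59 to 4.94 times in the other groups. In any comparison with DMSO a difference in genome background thus comes with the treatment. Total reads per library are unknown, so depth itself was not compared. Of 10 macrophage marker genes fixed as a list, including Spi1 and Csf1r, 8 had a peak in all 9 libraries, and of 3 chondrocyte and 3 hepatocyte markers 0 did. The same holds for 2 of 4 T cell and 1 of 3 B cell markers.

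Nearly every ribosomal protein gene had a p65 peak at its ends in cells given DMSO alone, so the share had little room to rise after LPS or LPS+Skatole. Of the 50 members 46, 47 and 50 had a peak in the single DMSO libraries, 49, 47 and 49 after LPS, and 48, 47 and 49 after LPS+Skatole. The groups overlap. The means were 95.3% ± 4.16, 96.7% ± 2.31 and 96.0% ± 2.00 (SD, n = 3). Over all protein-coding genes the share was 50.1% ± 1.28 (DMSO), 55.4% ± 0.943 (LPS) and 59.2% ± 0.110 (LPS+Skatole), with no overlap between the groups. The order depends on how the lists are made comparable. With all lists cut to 37551 peaks the share over all genes was 48.6% to 49.4% under DMSO, 49.3% to 49.5% under LPS and 48.4% to 48.8% under both agents, and that of members 92% to 98%, 88% to 98% and 88% to 92%. With counts thinned to equal background the groups stayed apart over all genes (48.6% to 49.8%, 50.2% to 51.6% and 53.8% to 54.1%), as they did at a −log10 p of at least 10 (43.2% to 45.7%, 49.8% to 51.1% and 53.0% to 53.6%). Among the inflammatory targets it was 75.3% ± 4.62, 88.0% ± 6.00 and 89.3% ± 1.15, and there the DMSO libraries lay below all others in lists of full length. With 3 libraries against 3 an exact permutation test cannot go below p = 0.1, so these shares are given as ranges and carry no test.

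**Figure D1:**
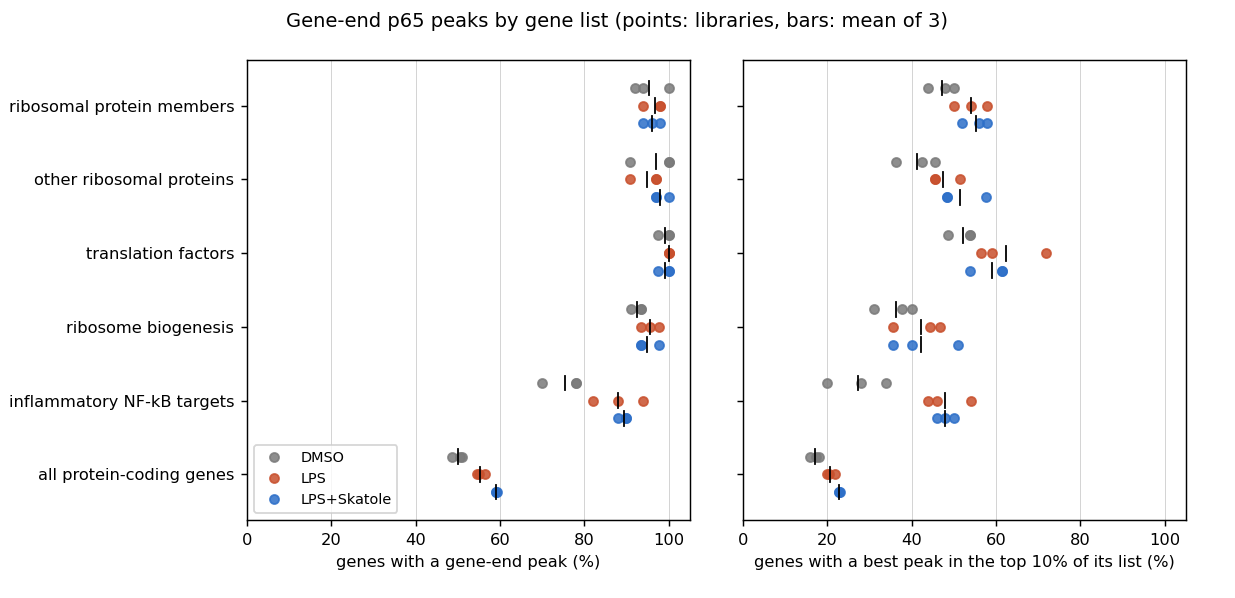
Share of genes with a p65 peak within 3 kb of either gene end (left, %) and with a best peak in the top 10% of its list (right, %), by gene list. Each point is a library (grey DMSO, orange LPS, blue LPS+Skatole) and each bar the mean of 3. The ribosomal protein members sit between 92% and 100% on the left in every group, close to the upper limit, and the inflammatory targets at 70% to 78% in DMSO and 82% to 94% in LPS, in lists of unequal length.

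A peak at a ribosomal protein gene was seen in all 9 libraries for 44 of the 50 members (88%), against 40.5% of all protein-coding genes and 70% of the inflammatory targets. By subunit it was 19 of 21 small-subunit and 25 of 29 large-subunit genes. The members carried more than 1 peak as a rule, with 2.55 ± 0.216 peaks a gene under DMSO, 2.54 ± 0.140 under LPS and 2.53 ± 0.170 under LPS+Skatole (SD, n = 3). Over all genes the number was 0.866 ± 0.0391, 1.07 ± 0.0444 and 1.21 ± 0.00525, and over the inflammatory targets 1.55 ± 0.121, 2.32 ± 0.156 and 2.49 ± 0.110. These numbers come from lists of different length, so no rise is read from them. The members are short genes, with a median length of 3249.5 bp against 17169 bp for all genes, so their windows cover less DNA (a median of 9249.5 bases against 12002). They also more often hold a small nucleolar RNA gene, in 16 of 50 members (32%) against 1.70% of all genes. The end of another protein-coding gene lay within the windows of 25 members (50%, against 37.7%), and in those a peak cannot be assigned to the member alone. No best peak was shared by 2 members.

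The strength of a peak was described by its percentile within its own list, where 100 is the smallest p. The median member stood at 88.9 ± 1.04 under DMSO, 91.2 ± 1.47 under LPS and 91.8 ± 0.740 under both agents, counting a gene without a peak as 0. The DMSO and LPS libraries overlap, and the LPS+Skatole libraries (91.1 to 92.5) lay above the DMSO libraries (88.2 to 90.1). The order is not stable, since with lists cut to equal length the LPS+Skatole median lay 5.27 points below DMSO. The median inflammatory target stood at 72.6 ± 1.77 under DMSO, 88.7 ± 3.28 under LPS and 89.3 ± 0.678 under both agents, and the median over all genes, many without a peak, at 4.31, 33.8 and 47.2. These medians come from lists of different length, so no rise is read from them. Restricted to genes with a peak, the median percentile in DMSO was 90.1 for members, 84.2 for inflammatory targets and 82.7 for all genes. Under LPS these were 91.6, 92.2 and 84.3, and under both agents 92.3, 91.8 and 84.8, so members stood above the inflammatory targets by more than the spread between libraries in DMSO alone. The share of members with a best peak in the top 10% of the list was 47.3% ± 3.06, 54.0% ± 4.00 and 55.3% ± 3.06, against 17.2%, 20.7% and 22.8% of all genes. Small-subunit genes stood higher than large-subunit genes in the DMSO libraries, with medians of 92.7 ± 1.77 and 87.4 ± 0.358, in the LPS libraries, with 93.2 ± 1.53 and 86.6 ± 2.99, and in the LPS+Skatole libraries, with 92.7 ± 0.433 and 90.5 ± 1.75. The difference between subunits was not tested.

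**Figure D2:**
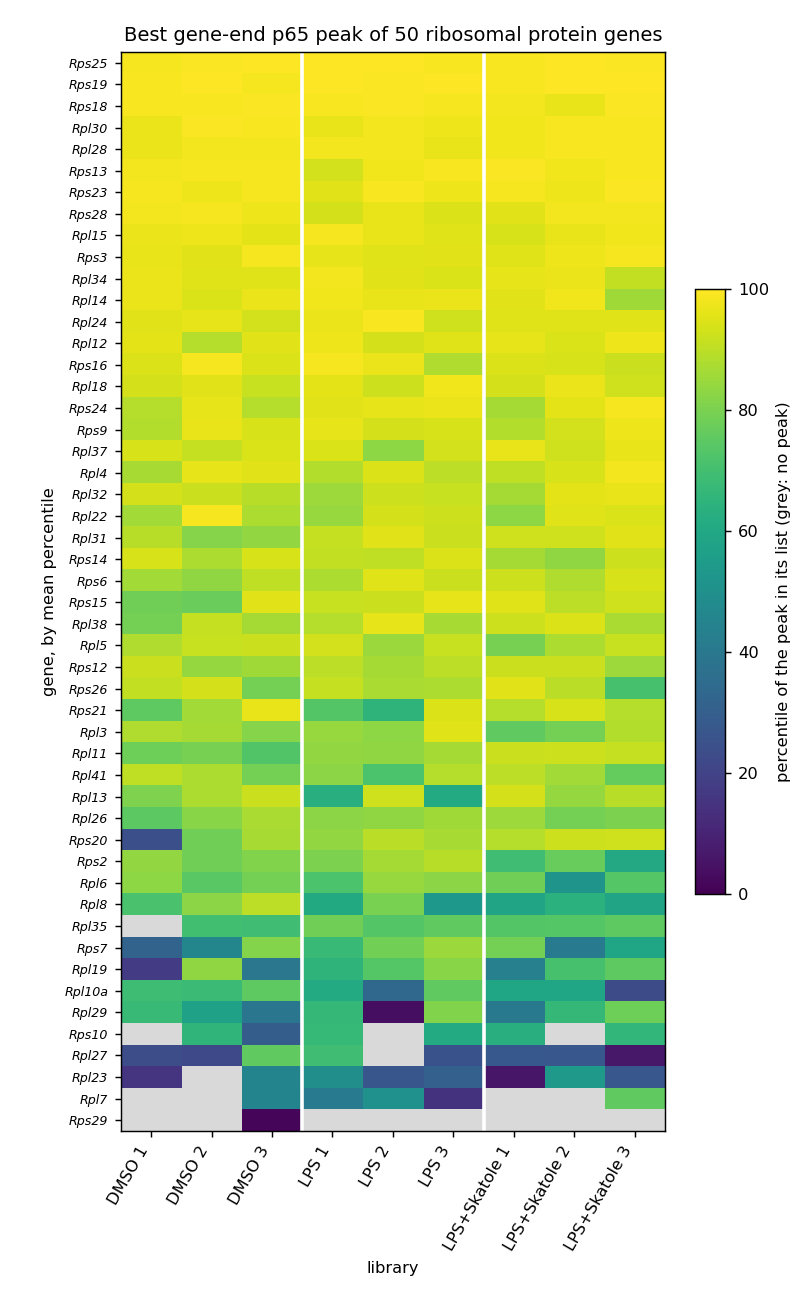
Percentile of the best gene-end p65 peak within its list (colour, 0 to 100) for each of the 50 ribosomal protein genes (rows, by mean percentile) in the 9 libraries (columns). Grey cells had no peak. The upper 24 rows have a mean of at least 90, and the 6 rows with a grey cell are the genes that lacked a peak in some library.

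Members differed widely among themselves. The mean percentile over the 9 libraries was 90 or more for 24 members, between 50 and 90 for 21 and under 50 for 5, and 13 members stayed over 90 in every library. Of the small-subunit genes, Rps25, whose product lies in the head of the subunit and is needed by some viral internal ribosome entry sites, had a mean percentile of 99.5. Its peak region is chr9:44406592-44409436 (mm10). The summit counted 117, 188 and 172 fragments in DMSO, 282, 248 and 203 in LPS, and 207, 221 and 217 in LPS+Skatole. Divided by the genome background, a quantity called height below, these are 107, 134 and 127, then 123, 111 and 86.6, then 88.5, 97.8 and 90.6. The heights of DMSO and LPS overlap, those of LPS+Skatole lie below DMSO and within the LPS range, and the ETS core printed above lies within this peak region.

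Rps19, a 40S protein whose human counterpart is the gene most often mutated in Diamond-Blackfan anaemia, also had a mean percentile of 99.5. Its heights were 89.9, 127 and 77.3 in DMSO, 95.0, 74.6 and 102 in LPS, and 59.8, 94.7 and 79.3 in LPS+Skatole, so all 3 groups overlap. Rps18, at the head of the small subunit, had heights of 83.5, 85.8 and 92.0 in DMSO, 57.5, 65.1 and 54.6 in LPS, and 51.7, 42.9 and 66.4 in LPS+Skatole. Here every DMSO library was above the others, while the percentile stayed between 96.5 and 99.3 throughout. Rpl30, a 60S protein, completed the top 4 with a mean percentile of 98.1 and heights of 58.7, 90.8 and 87.6, then 40.5, 50.8 and 46.1, then 48.3, 69.0 and 65.1.

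Several members also have roles outside the ribosome. Rps3, a 40S protein at the mRNA entry and also known as a DNA repair endonuclease and as a partner of p65 in the nucleus, had heights of 56.0, 47.9 and 75.1 in DMSO, 37.0, 34.1 and 35.4 in LPS, and 36.8, 47.8 and 57.2 in LPS+Skatole. Its percentile lay between 95.2 and 98.7. In height every LPS library lay below every DMSO library, and the LPS+Skatole libraries overlap with both groups. The log2 difference of LPS from DMSO was −0.72 (SE 0.23, limma, adjusted p = 0.133), and −0.42 after centring. Rps6, the 40S protein phosphorylated by S6 kinase, had heights of 34.0, 27.9 and 39.0, then 24.8, 36.8 and 30.7, then 33.3, 27.4 and 37.2, with all groups overlapping.

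In the large subunit, Rpl5 and Rpl11 bind 5S RNA and can inhibit the p53 ligase Mdm2. Rpl5 had percentiles of 88.1, 91.5 and 91.9 in DMSO, 93.0, 85.1 and 91.7 in LPS, and 79.5, 87.9 and 91.6 in LPS+Skatole. Rpl11 had 77.8, 79.6 and 72.7, then 83.8, 83.5 and 86.4, then 91.8, 92.5 and 91.1, and its 3 groups do not overlap. Of all genes 9.38% (LPS against DMSO) and 6.27% (LPS+Skatole against LPS) were likewise higher without overlap. These percentiles come from lists of different length, and the difference between Rpl5 and Rpl11 was not tested. The heights of Rpl11 were 37.6, 46.5 and 30.9, then 31.4, 31.0 and 32.9, then 44.9, 46.9 and 38.0, so that in height the DMSO libraries overlap with both other groups. Rpl38 is needed for the translation of particular Hox mRNAs in the embryo. Its heights were 61.5, 37.2 and 71.4, then 58.4, 39.5 and 54.6, then 54.3, 37.6 and 24.2, and the groups overlap. The best peak of Rpl38 fell in the same region in 5 of 9 libraries, so these heights compare different peaks. Whether the height at a given site of Rpl38 differs by treatment was not tested.

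The 6 members without a peak in every library were Rps29, Rps10, Rpl7, Rpl23, Rpl27 and Rpl35. Rps29, a zinc-binding 40S protein, had a peak in 1 library (DMSO 3), at percentile 1.40 with a summit of 28 fragments over a local background of 10.7. Rpl7, a 60S protein that binds ribosomal RNA, had none in DMSO 1, DMSO 2, LPS+Skatole 1 and LPS+Skatole 2, while its percentile was 45.2 in DMSO 3, 40.9, 50.5 and 14.5 in LPS, and 75.5 in LPS+Skatole 3. Rps10, a 40S protein of the head, was without one in DMSO 1, in LPS 2 and also in LPS+Skatole 2, 1 library of each group, and stood between 29.7 and 67.2 elsewhere. Rpl23, Rpl27 and Rpl35, all of the 60S subunit, lacked a peak in 1 library each, namely DMSO 2, LPS 2 and DMSO 1. The mean percentiles of Rpl23 and Rpl27 were 28.3 and 30.7, whereas Rpl35 reached 65.4 and varied little where it had a peak, from 69.4 to 78.3. None of the 6 was present throughout a group and absent throughout another.

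For the 41 members with a start in the promoter table, the median summit of the best peak lay within 350 bp of the start in 28, and in 25 of these on the upstream side. It lay more than 1000 bp away in 13. The best peak covered a start in all 9 libraries for 20 members and in no library for 9. The best peak of 27 members fell in the same region in all 9 libraries. Rps18 had its summit between 233 and 57 bp upstream, and Rps3 between 83 bp upstream and 34 bp downstream. In contrast Rps10 had its summit 5484 to 5763 bp downstream of the start, near the other end of the gene, in all 6 libraries with a peak, and no peak over its promoter in any library. Rpl38 alternated between a summit 6791 to 6897 bp downstream in 4 libraries (DMSO 1, DMSO 3, LPS 1 and LPS 3) and one 455 to 1213 bp downstream in the other 5.

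**Figure D3:**
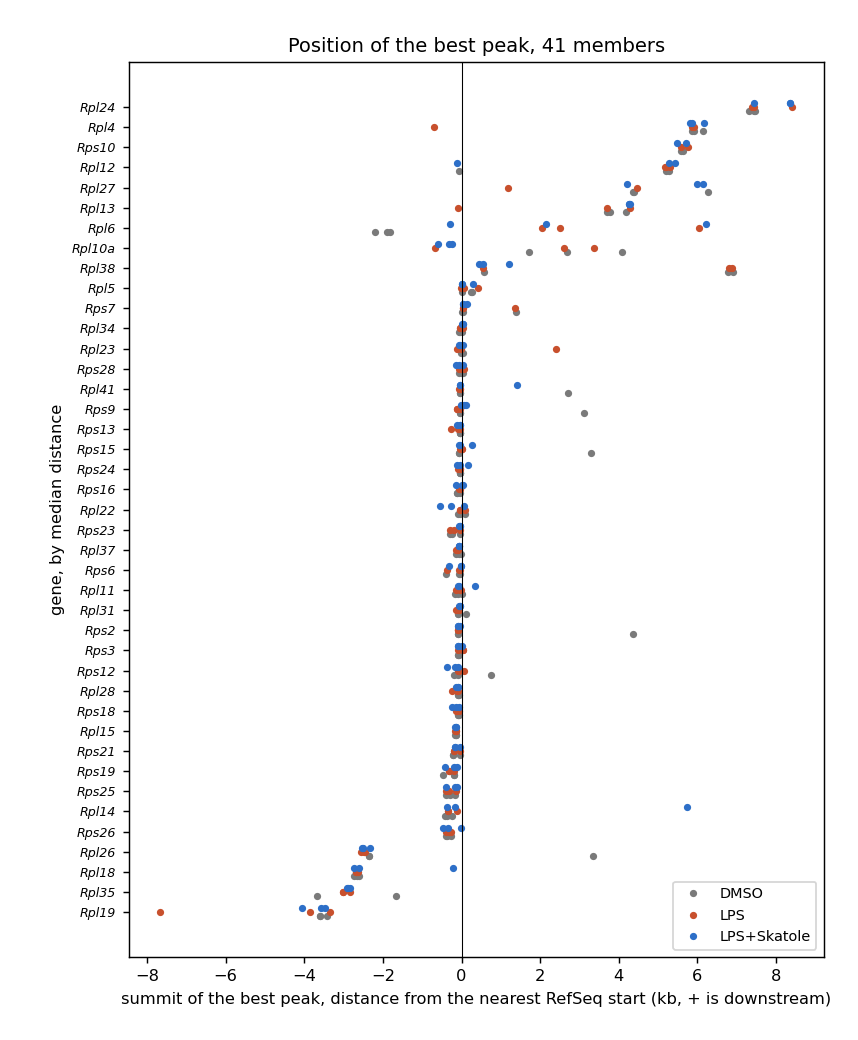
Distance in kb from the nearest RefSeq start to the summit of the best peak, for the 41 members with a start in the table. Points are libraries, coloured by group, and positive values are downstream. In 28 genes the median summit is within 350 bp of the start.

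A peak over the promoter itself, in the window of 300 bases, was present in all 9 libraries for 30 of 41 members (73.2%), against 30.6% of all genes and 51.4% of the inflammatory targets. By group it was 83.7% ± 1.41 (DMSO), 87.0% ± 2.82 (LPS) and 86.2% ± 1.41 (LPS+Skatole; SD, n = 3). The inflammatory targets had 58.1% ± 1.65, 79.0% ± 1.65 and 77.1% ± 2.86, with every DMSO library below the rest. Over all genes with a promoter entry it was 38.8% ± 1.09, 41.1% ± 0.358 and 41.9% ± 0.350, with no overlap between the groups. These shares come from lists of unequal length and genome background and carry no test. The 11 members without a promoter peak in every library were Rps10 (0 libraries), Rpl27 and Rpl35 (1 each), Rpl26 (2), Rpl10a and Rpl19 (3 each), Rpl38 (5), Rpl6 (7), and Rps7, Rpl23 and Rpl24 (8 each).

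The local background that the peak caller set against a summit varied widely among the members. It equalled or nearly equalled the genome background (a ratio under 1.1, as a median over libraries) for 16 members, among them Rps3, Rps18, Rps19 and Rps28. It was at least 3 times the genome background for 22 and at least 10 times for 5 (as medians over libraries), namely Rpl23 (24.5), Rps21 (23.6), Rpl41 (22.6), Rps2 (21.1) and Rpl7 (19.3). In single libraries 34.0% to 43.5% of the members with a peak were at 3 times or more, against 25.4% to 30.6% of all genes with a peak, 36.2% to 46.3% of the inflammatory targets, 43.3% to 59.4% of the other ribosomal protein genes and 35.9% to 46.2% of translation factor genes. At 10 times or more the shares were 8.51% to 16.3% of members and 10.4% to 13.7% of all genes. A high local background was thus not particular to the members.

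At these loci a high summit could have a low rank. Rpl7 in DMSO 3 had 113 fragments at its summit over a local background of 53.5 and stood at percentile 45.2. Rps18 in LPS+Skatole 1 had 121 fragments over 2.34 and stood at 98.1. Rps21, a small-subunit protein, counted 96, 141 and 161 fragments in DMSO at percentiles of 75.2, 86.0 and 96.6, over local backgrounds of 27.3, 34.3 and 16.4. What the caller measured the local background from is not given in the sources used here, and its part in the low ranks was not tested.

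**Figure D4:**
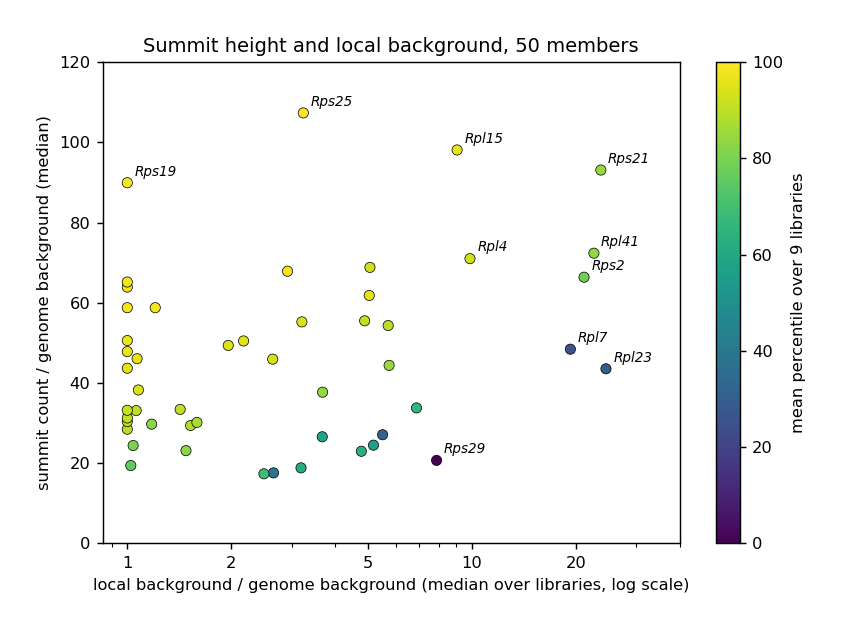
Summit height (summit count over genome background, vertical axis) against local background over genome background (horizontal axis, log scale), both as medians over the libraries with a peak, for the 50 members. Colour is the mean percentile. Rpl7 and Rpl23 combine a local background near 20 times the genome level or above with heights of 48.4 and 43.5 and a low percentile. Rps21, Rpl41 and Rps2 had local backgrounds of 23.6, 22.6 and 21.1 times the genome level, with mean percentiles of 84.7, 83.6 and 78.4.

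The comparison of LPS with DMSO asks whether p65 peaks at ribosomal protein genes respond to the stimulus, and that of LPS+Skatole with LPS whether skatole alters them. No member gained or lost a gene-end peak (present in each of the 3 libraries on one side and in 0 on the other) between LPS and DMSO, where 1.06% of all genes did, between LPS+Skatole and LPS (0.535%), or between LPS+Skatole and DMSO (1.82%). The 44 members with a peak in all 9 libraries could not be counted as either by this rule, so the count rests on the other 6 and says nothing of stability. Among the inflammatory targets, the chemokine gene Ccl5 was gained in LPS, and Ccl2, Ccl5, Cxcl1 and Csf3 in LPS+Skatole, each against DMSO.

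The percentiles of 3 members, Rpl11, Rpl31 and Rpl35, were higher in every LPS library than in any DMSO library, that is 6% of members where 9.38% of all genes were. Rpl31, near the exit tunnel of the large subunit, had 89.4, 82.0 and 83.9 in DMSO and 91.1, 95.3 and 92.2 in LPS. Rps28, a 40S protein at the mRNA exit, was the 1 member (2%) lower in every LPS library, where 1.40% of all genes were. Its percentile was 98.1, 98.6 and 97.5 in DMSO, 93.7, 96.5 and 94.6 in LPS, and 95.7, 98.3 and 98.1 in LPS+Skatole. Both counts are near the background. They rest on percentiles from lists of different length, and no count at equal length was made.

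Between LPS+Skatole and LPS, Rpl11 alone was higher without overlap (2% of members, against 6.27% of all genes) and Rps2 alone lower (2%, against 1.96%). Rps2, a 40S protein near the mRNA entry, had percentiles of 80.1, 86.4 and 89.3 in LPS and 69.5, 76.7 and 60.5 in LPS+Skatole, while its local background stayed between 20.4 and 21.2 times the genome level in all 6 libraries. Between LPS+Skatole and DMSO, 4 members were higher (Rps20, Rpl11, Rpl31 and Rpl35, 8% against 14.0%) and 3 lower (Rps2, Rpl8 and Rpl10a, 6% against 0.923%). The latter share is above that of all genes, rests on 3 genes and carries no test. By the same measure 12.1% of the other ribosomal protein genes (4 of 33) and 8.89% of ribosome biogenesis genes (4 of 45) were lower. Of the translation factor genes 0 of 39 were, and of the inflammatory targets 0 of 50. Rpl8, at the peptidyl transferase centre of the 60S subunit, had 71.5, 82.4 and 89.9 in DMSO, 60.7, 79.8 and 53.4 in LPS, and 58.3, 63.7 and 58.4 in LPS+Skatole. Rpl10a, the protein of the L1 stalk, had 69.0, 68.0 and 75.2 in DMSO and 58.6, 59.1 and 23.0 in LPS+Skatole. These are different peaks, with summits at 1706, 4071 and 2691 bp from the start in DMSO and at −610, −241 and −312 bp (upstream) in LPS+Skatole, and the local background there was 3.32 to 3.68 and 7.12 to 29.3 times the genome level. The best peak of Rpl8 fell in the same region in 6 of 9 libraries, and that of Rps2 in 8, with DMSO 3 as the exception, so these differences too are not all at 1 site.

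Heights were compared by limma over the 8874 protein-coding genes with a peak in all 9 libraries, which include 44 members, with Benjamini-Hochberg adjustment over all of them. No member passed an adjusted p of 0.05 in any of the 3 comparisons. For LPS against DMSO 0.563% of all genes tested passed (7 higher and 43 lower), for LPS+Skatole against LPS 0.0676% (4 higher and 2 lower) and for LPS+Skatole against DMSO 0.766% (20 higher and 48 lower). At an unadjusted p under 0.05 there were 13, 4 and 8 of the 44 members, that is 29.5%, 9.09% and 18.2%, against 22.0%, 11.8% and 15.9% of all genes tested. The median log2 difference of the members was −0.41, 0.05 and −0.30, and that of all genes −0.30, 0.17 and −0.14. After each library was centred on its median gene, the members' medians were −0.10, −0.13 and −0.17, and 2, 3 and 4 members (4.55%, 6.82% and 9.09%) had an unadjusted p under 0.05, against 8.65%, 7.88% and 13.0% of all genes tested, with 0 members past the adjusted threshold. Centring also moved the split over all genes, to 10 higher and 7 lower for LPS against DMSO and to 27 higher and 23 lower for LPS+Skatole against DMSO. The median standard error of a member's log2 difference was 0.25 before centring.

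The members with the smallest p for LPS against DMSO were Rps28, Rpl8 and Rps21. Rps28 had heights of 67.9, 71.5 and 61.1 in DMSO, 30.5, 38.6 and 32.9 in LPS, and 38.5, 54.0 and 50.5 in LPS+Skatole. Its log2 difference was −0.98 (SE 0.20, limma, adjusted p = 0.0647), and −0.67 after centring (adjusted p = 0.351). The DMSO and LPS libraries do not overlap, and the LPS+Skatole libraries lie below DMSO and reach down into the LPS range. Rpl8 had heights of 27.5, 31.5 and 43.4, then 16.6, 22.0 and 14.1, then 15.4, 17.3 and 15.5, a log2 difference of −0.96 (SE 0.27, limma, adjusted p = 0.108) for LPS and −1.07 (SE 0.27, adjusted p = 0.104) for LPS+Skatole, both against DMSO. Every DMSO library was above the other 6, in libraries of lower genome background. The best peak of Rpl8 fell in the same region in 6 of 9 libraries, so these heights are not all at 1 site. Rps21 had heights of 88.1, 101 and 118, then 64.5, 58.9 and 79.8, then 94.5, 96.0 and 93.1, with a log2 difference of −0.60 (SE 0.17, limma, adjusted p = 0.108) for LPS against DMSO. After centring that difference was −0.29 (limma, adjusted p = 0.642).

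For LPS+Skatole against LPS the smallest p-values belonged to Rps21 (log2 difference 0.49, SE 0.17), Rpl10a (0.99, SE 0.36) and Rps28 (0.48, SE 0.20), with limma adjusted p-values of 0.369, 0.369 and 0.407. After centring these differences were 0.31, 0.81 and 0.30. The smallest p among members then belonged to Rps2, at −0.53 (limma, unadjusted p = 0.0199, adjusted p = 0.569). Rpl10a had heights of 18.7, 13.5 and 24.3 in LPS and 26.5, 65.5 and 28.0 in LPS+Skatole. Its best peak lay in the same region in 4 of 9 libraries (LPS 3 and the 3 of LPS+Skatole), so this difference compares different peaks and is not a change at 1 site. On the authors' fold, which divides by the local background, the log2 difference was −0.89. For LPS+Skatole against DMSO, Rps18 (−0.72, SE 0.19) and Rpl13 (−0.69, SE 0.23) followed Rpl8, with limma adjusted p-values of 0.116 and 0.181. Rpl13, a 60S protein, had heights of 47.7, 42.2 and 40.5 in DMSO and 33.8, 21.7 and 26.3 in LPS+Skatole, and on the authors' fold its log2 difference was 0.53.

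The inflammatory list was put through the same test for comparison. Of 35 inflammatory targets tested, Acod1, which makes itaconate, and Nos2, the inducible nitric oxide synthase, rose in LPS against DMSO, by 2.00 (SE 0.22, limma, adjusted p = 0.00278) and 1.57 (SE 0.22, adjusted p = 0.0125) on the log2 scale. Both rose in LPS+Skatole against DMSO too, by 2.05 (SE 0.22, limma, adjusted p = 0.00182) and 1.26 (SE 0.22, adjusted p = 0.0295). Between LPS+Skatole and LPS their log2 differences were 0.05 and −0.31, past no threshold. Acod1 passed against DMSO in all 24 alternatives run for each comparison (adjusted p up to 0.0242). Nos2 passed in 21 of 24 for LPS, failing without LPS replicate 2 (adjusted p = 0.0737, and 0.0506 when centred) and with the replicate number as a block (0.0562). For LPS+Skatole it passed in 11 of 24. The block (adjusted p = 0.0848) ended that call, and leaving out any 1 library of DMSO or LPS+Skatole gave an adjusted p of 0.0653 to 0.0934 uncentred and 0.0449 to 0.0766 centred, the lowest without DMSO replicate 1. Among the 35 targets tested, the median log2 difference against DMSO was 0.08 for LPS and 0.24 for LPS+Skatole, and 0.38 and 0.37 after centring. Ccl3 and Ccl4 had identical values there. Targets lacking a peak in some library were not tested, among them Ccl2, Ccl5, Cxcl1 and Csf3, gained in LPS+Skatole against DMSO. By percentile, 44% of the 50 targets were higher in every LPS library than in any DMSO library (9.38% of all genes). For LPS+Skatole it was 48% (14.0%), and 0 were lower in either comparison, in lists of different length.

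**Figure D5:**
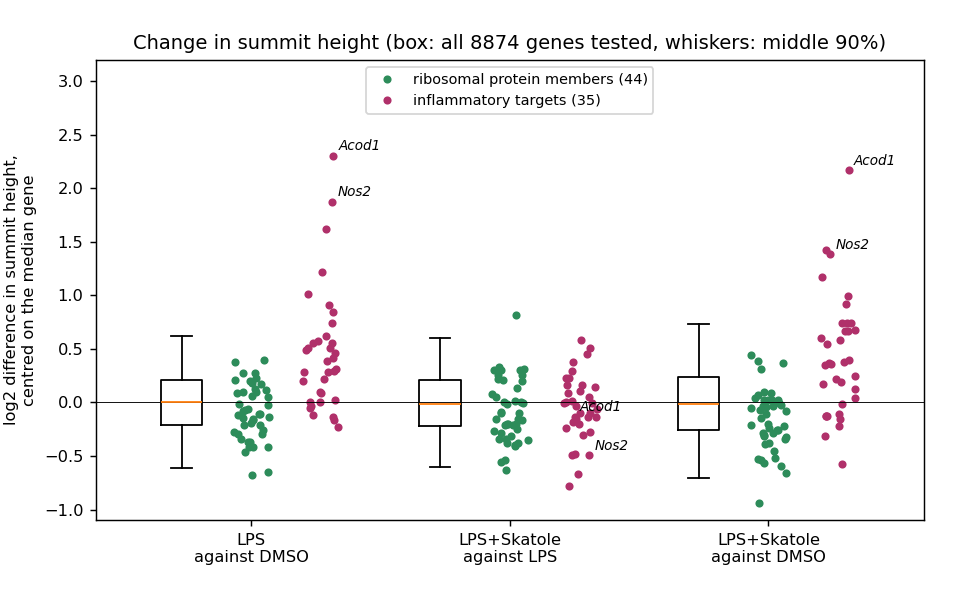
Log2 difference in summit height between groups, after centring each library on its median gene. Boxes give the quartiles and the 5th to 95th percentile of the 8874 genes tested, green points the 44 ribosomal protein genes with a peak in all 9 libraries and purple points 35 inflammatory targets. The ribosomal protein genes stay within 1 log2 unit of 0 in each comparison, and Acod1 is the highest of the inflammatory targets in both comparisons with DMSO.

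In the genes nearest in function the share with a gene-end peak was similarly high. In the order DMSO, LPS and LPS+Skatole, 97.0%, 94.9% and 98.0% of the other 33 ribosomal protein genes had a gene-end peak, 99.1%, 100% and 99.1% of 39 translation factor genes, and 92.6%, 95.6% and 94.8% of 45 ribosome biogenesis genes. By limma, 0 of 30 other ribosomal protein genes and 0 of 37 translation factor genes passed in any comparison, with 6, 2 and 9 and with 9, 3 and 5 at an unadjusted p under 0.05. For LPS+Skatole against DMSO, 9 of 30 lies above the share over all genes tested given earlier. So does 9 of 37 for LPS against DMSO, by less, and the other counts lie below their shares. These differences were not tested. Of 39 ribosome biogenesis genes 2 fell in LPS against DMSO, Emg1, an rRNA methyltransferase, and Taf1d, a subunit of the RNA polymerase I selectivity factor, but Emg1 passed in 2 of 24 alternatives (adjusted p up to 0.483) and Taf1d in 22 of 24. The log2 difference of Taf1d was −0.16 with a 1 kb window (adjusted p = 0.726) and 0.16, of opposite sign, on the authors' fold. Among the other 33 ribosomal protein genes a peak was gained at Rpl36al in LPS+Skatole against LPS.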

How the data were processed

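p65 CUT&Tag peaks were analysed in 9 libraries of RAW264.7 cells. The authors deposited a peak list per library in narrowPeak format, called library by library. Each row of the deposited lists gives a fold (a ratio of the summit to the local background), a −log10 p and a −log10 q, a score and a summit position. The notes of the submitters name mm10, fastp 0.20.1, HISAT2 2.1.0 and StringTie 2.0 without saying what each was used for. The caller, the treatment of duplicates and the use of a control are not given in the sources used here, and total reads per library are unknown.

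Summit counts were recovered from the deposited fold, taken as (count + 1)/(background + 1), and the −log10 p, taken as a Poisson tail. They came out whole, within 1% of the count, for 100% of peaks in each list. For large counts that tolerance is wider than any rounding error, so there the check cannot fail and says nothing of the formula. As genome background served the commonest background of each list, at which 54.1% to 62.0% of the peaks stood. Every list ended at a −log10 p of 5. Intervals from counts were not computed, since duplicates may remain.

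Genes and promoters came from RefSeq (GRCm38.p6), the assembly that mm10 denotes. A gene-end peak overlapped the 3 kb on either side of a gene's start or end. Log2 heights were fitted by limma 3.58.1 (R 4.3.3, lmFit and eBayes with trend, no covariate, 9 libraries together) and adjusted by Benjamini-Hochberg, and the script was tested on simulated data. Python 3.11.15 was used for the rest. Genes named one by one are those lacking a peak in some library, the 4 highest and the 4 lowest by mean percentile, the 3 with the smallest p in each comparison, Rps3, Rps6, Rps19, Rpl5, Rpl11 and Rpl38. Genes with percentiles that do not overlap, those with a high local background and the examples of position were chosen after their values were seen. The members and the lists were chosen with earlier results of these data known. Alternatives were other windows, list lengths, thresholds and ranks, thinned counts, centring, the authors' fold, each library left out and a replicate block.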

Additional observations from a re-analysis of the deposited data

How the results depend on the processing

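The share of members with a peak differed by 1.33 points (LPS minus DMSO), −0.667 (LPS+Skatole minus LPS) and 0.667 (LPS+Skatole minus DMSO), and their median percentile by 2.26, 0.609 and 2.87. With all lists cut to 37551 peaks, the percentile differences became −1.81, −3.46 and −5.27, the share differences −2.0, −3.33 and −5.33 in the same order, and 1 member, Rpl27, was lost in LPS+Skatole against DMSO. The percentile differences from DMSO, for LPS and LPS+Skatole, were 4.38 and 5.03 with a −log10 p of at least 10, −1.27 and −0.232 with counts thinned to equal background, and 0.437 and 1.02 with peaks ranked by summit count, an alternative chosen after seeing the data. Ranked by the authors' fold, LPS+Skatole differed by −1.26 from LPS and by 1.03 from DMSO. In each case the cause was not tested. The sign of a percentile difference between groups is thus not settled by these lists. Leaving out 1 library at a time gave share differences from −0.333 to 3.67, −2.00 to 0.333 and −1.0 to 3.00, and percentile differences from 1.75 to 3.10, −0.237 to 1.11 and 2.49 to 3.46. Members gained in LPS against DMSO ranged from 0 to 1 (Rpl7, without DMSO replicate 3), and members lost in LPS+Skatole against LPS from 0 to 1 (Rpl7, without LPS+Skatole replicate 3). No member passed the limma threshold under any alternative run. On the authors' fold the log2 difference of Rpl13 for LPS+Skatole against DMSO was 0.53 and that of Rpl10a for LPS+Skatole against LPS was −0.89, both of the opposite sign, and the cause was not tested. Of the alternative values for the 9 log2 differences of members named by the smallest p, these 2 reversed and the other 214 had the same direction and side of the threshold, and single values of other members were not rerun. Libraries with the same replicate number did not deviate together in height (correlation −0.0260 to 0.0208 over 9 pairs, against −0.0242 to 0.0370 over 18 pairs of unlike number). Whether libraries of the same number were prepared together cannot be told from this. In this balanced design a replicate block cannot move a difference of group means (1.33 and 2.26 for LPS minus DMSO). With it 0 members passed the limma threshold. Over all genes 18, 4 and 21 passed with the block, against 50, 6 and 68 without it (LPS against DMSO, LPS+Skatole against LPS, LPS+Skatole against DMSO), 17, 5 and 50 after centring, 11, 4 and 46 on the authors' fold, 43, 2 and 70 with a 1 kb window, and 20, 6 and 16 without DMSO replicate 3. The lowest counts with 1 library left out were 17, 4 and 16 and the highest 41, 12 and 64. Limits: the genome background, a stand-in for depth, is lower in every DMSO library, the treatment of duplicates and the caller's use of a control are not given, and gene-end windows of 25 members hold the end of another gene. No library was compared with the Blank sample.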
